A study of Rattus norvegicus with 6 samples.

Results

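Differentiation of a fat precursor into an adipocyte is held in check by transcription factors that keep the adipogenic programme off. The genes described here are 10 such regulators, taken by name from the platform annotation: the zinc finger factors Gata2 and Gata3, the Krüppel-like factors Klf2, Klf3 and Klf4, the basic helix-loop-helix factors Twist1 and Twist2, the nuclear receptor Nr2f2 (COUP-TFII), and the large zinc finger proteins Zfp521 and Zfp423. All 10 were measured, each by 1 feature, among 18166 genes. RNA from rat adipose-derived stem cells (ADSCs) was hybridised to one-colour Affymetrix arrays, 3 of control cells and 3 of cells after 7 days of adipogenic induction. Cells of both groups came from inguinal fat of female Wistar rats 2 weeks old, and the labels do not say whether each culture had its own animal, so p-values measure the spread between these cultures. How long control cells were kept is not stated either. Control medium held 10% fetal bovine serum. Induction medium held 20% serum with 5 µg/ml insulin, 1 µM dexamethasone (a glucocorticoid) and the phosphodiesterase inhibitor 3-isobutyl-1-methylxanthine at 0.5 mM, so serum and inducers changed together and cannot be told apart.

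As background, GATA2 and GATA3 bind the Pparg promoter and C/EBP proteins and are known to hold cells at the preadipocyte stage. KLF2 represses Pparg, and KLF3 recruits the corepressor CtBP to the Cebpa promoter. TWIST proteins dimerise with E proteins at E-boxes and can repress other regulators. NR2F2 is known to repress Pparg, and ZFP521 binds and blocks the adipogenic factor EBF1. Not every member is only a brake in the literature: KLF4 is also known to activate Cebpb early after induction, and ZFP423, a relative of ZFP521, is known to commit cells to the preadipocyte fate.

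After 7 days of induction the 10 genes as measured had small to moderate differences in both directions, none past the test. Of the members, 0 of 10 changed at an adjusted p under 0.05 (limma, Benjamini-Hochberg over all genes), where 0.749% of all genes were called. At an unadjusted limma p under 0.05 there was 1 member, Twist2, against 17.6% of all genes. On the log2 scale 7 of the 10 estimates were negative, against 52.4% of all genes. Their median difference, induced minus control, was -0.28 on the log2 scale, beside -0.013 over all genes. The 3 arrays of one group lay wholly apart from the other for 2 members, Twist2 (induced lower) and Zfp423 (induced higher), against 25.4% of all genes. For 4 members, Gata2, Klf2, Klf3 and Twist1, the 95% interval of the difference lay inside a 2-fold change in either direction, while for the other 6 it reached further.

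Values are log2 RMA signals, without a call of detection, so dim genes cannot be called absent, and the number of arrays limits their precision. Induced replicate 3 stood apart from the rest: 2745 and 2664 features differed by over 2-fold between it and induced replicates 1 and 2, which differed from each other at 546. The means of the 15 measured stromal precursor markers ran from 9.38 to 9.49 on the control arrays, 9.22 and 9.21 on induced replicates 1 and 2, and 8.33 on induced replicate 3. Means of the 22 measured mature adipocyte markers were 7.98, 6.79 and 6.76 for control replicates 1 to 3, against 10.29, 10.26 and 11.50 on the induced ones. Among control arrays replicate 1 was highest in these markers. Without a call of detection the other control arrays cannot be said to give adipocyte signal. Of those markers 12 rose over all genes, led by Thrsp, Gpd1, Rbp4 and Retn. With a block for replicate number these 4 missed the threshold (limma adjusted p = 0.0653 to 0.0687), as they did without induced replicate 1 (0.07 to 0.103). Thrsp, Gpd1 and Retn also missed it without induced replicate 2 (0.0838 to 0.0918) or control replicate 3 (0.0767 to 0.0815), and Gpd1 and Retn without control replicate 2 (0.0801 and 0.0807). Because these are bulk cultures, fewer cells of a type and less RNA per cell cannot be told apart.

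**Figure D1:**
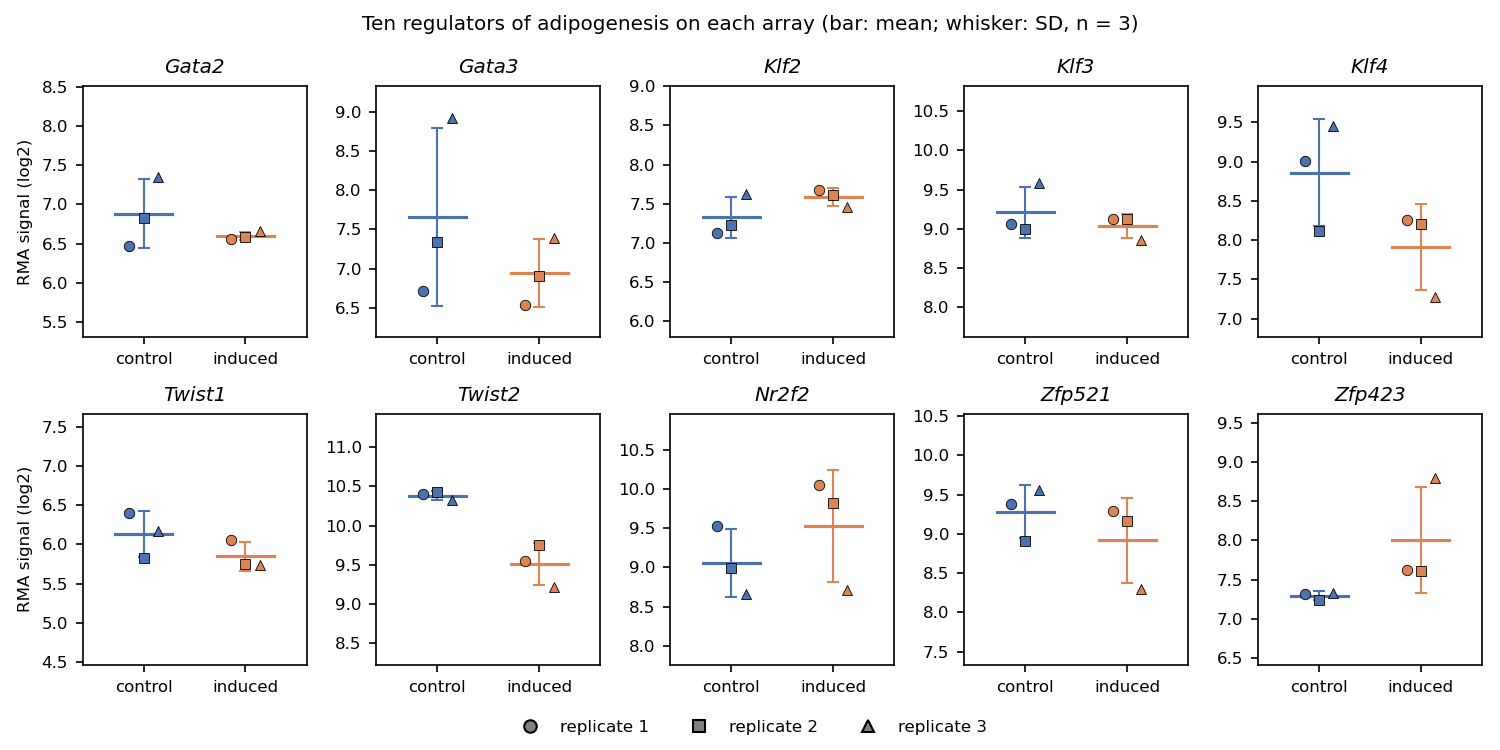
Log2 RMA signal (y axis) of the 10 regulators on 3 control and 3 induced arrays, with marker shapes for replicate numbers, horizontal bars for group means and whiskers for SD (n = 3). Each panel spans the same number of log2 units. Twist2 (induced lower) and Zfp423 (induced higher) are the panels in which the groups do not overlap.

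Of the TWIST pair, Twist2 had the smallest p of the 10 members and Twist1 an overlapping, smaller difference. Twist2 (Dermo1), a basic helix-loop-helix repressor of mesenchymal cells, read 10.40, 10.43 and 10.32 in the 3 control cultures and 9.55, 9.75 and 9.22 in the induced ones. All 3 induced values were below all 3 control values, and the control arrays lay close together. The mean went from 10.38 ± 0.06 to 9.51 ± 0.27 (SD, n = 3), a difference of -0.87 on the log2 scale (SE 0.15, 95% interval -1.24 to -0.51), or 1.83-fold lower. With an adjusted p of 0.0686 (limma) it missed the threshold over all genes. It passed without induced replicate 3 (difference -0.73, limma adjusted p = 0.0330), without both replicate 3 arrays (-0.76, limma adjusted p = 0.0364) and with arrays weighted by their spread (-0.78, limma adjusted p = 0.0178). Over its 15 alternatives the adjusted p ran from 0.0178 to 0.226, and the difference stayed negative in every one of them.

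Twist1, its close relative, read 6.40, 5.82 and 6.17 on the control arrays and 6.06, 5.75 and 5.73 on the induced ones. The groups overlapped, control replicate 2 lying below induced replicate 1. By mean signal Twist1 lay at percentile 43.4 of all genes and Twist2 at 94.0. The part of lower signal in the smaller Twist1 difference was not tested. The difference was -0.28 (SE 0.18, 95% interval -0.71 to 0.15, limma adjusted p = 0.472). Taken as the log2 ratio of Twist2 to Twist1 on each array, the pair averaged 4.25 ± 0.31 (SD, n = 3) in control cells and 3.66 ± 0.29 (SD, n = 3) in induced ones, a shift of -0.59. The groups were only just apart, with 4.0012 on control replicate 1 and 3.9992 on induced replicate 2. An exact permutation test gave a two-sided p of 0.1 for the shift, the smallest that 3 arrays against 3 allow. It was 0.15 after adjustment over the 6 family pairs compared. Whether probes of one TWIST gene also detect RNA of the other was not tested.

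The promoter of Twist2 is shown because this gene led the members. It is the 250 bases before the gene's start in RefSeq (GRCr8, chr9:99821992-99822241, plus strand), and E-boxes (CANNTG, the sites that TWIST dimers bind) would stand in capitals.
Twist2: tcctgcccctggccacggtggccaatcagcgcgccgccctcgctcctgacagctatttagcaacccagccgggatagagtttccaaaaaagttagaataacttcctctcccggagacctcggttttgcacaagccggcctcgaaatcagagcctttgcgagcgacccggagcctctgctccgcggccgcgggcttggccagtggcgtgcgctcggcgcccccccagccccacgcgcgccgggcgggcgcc
The window held 0 E-boxes, while 65.5% of 33469 RefSeq promoter windows of this length held at least 1. No match says only that these letters are not in this window.

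Partners of the TWIST proteins were read from a list of 14 basic helix-loop-helix and ID genes, all measured. Over all genes 0 of 14 passed (limma, 4 at an unadjusted p under 0.05), and 11 estimates were negative with a median of -0.15. Bhlhe40, a clock-linked repressor, stood at -0.96 (limma adjusted p = 0.309) over all arrays and -0.56 without control replicate 3, below the size of Tcf4 there. Tcf4, an E protein that dimerises with TWIST, stood at -0.86 (SE 0.26, limma adjusted p = 0.178). Its induced values of 8.55, 8.27 and 7.58 all lay below the control values of 9.25, 8.92 and 8.81.

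Among the GATA factors the range of the control arrays was wider than the difference between the group means. Gata2 read 6.47, 6.82 and 7.34 in the control cultures, by replicate number, and 6.56, 6.58 and 6.66 on the induced ones. The induced arrays lay within the control range and close together. Its difference was -0.28 (SE 0.22, 95% interval -0.80 to 0.25, limma adjusted p = 0.57), with -0.046 without control replicate 3 and -0.48 without control replicate 1. Gata3 read 6.72, 7.34 and 8.92 in control and 6.53, 6.90 and 7.39 in induced cells. Control replicate 3 was the highest array for both genes. The Gata3 difference of -0.72 (SE 0.55, 95% interval -2.04 to 0.60, limma adjusted p = 0.561) had the widest interval of the 10 members, and was -0.086 without control replicate 3 but -1.19 without control replicate 1.

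Gata3 also differed between replicates in the induced group, where replicate 3 again read highest. The genes nearest to Gata3 in pattern were Tspan2, a tetraspanin, and Dpysl3, with root mean square differences of 0.20 and 0.23 on the log2 scale between centred values over 6 arrays. Both, picked for likeness on these arrays, were highest on control replicate 3, at 7.19 and 10.13. Neither passed the test (limma adjusted p = 0.434 and 0.666). On the log2 ratio of Gata3 to Gata2, the groups averaged 0.78 ± 0.70 (SD, n = 3) for control and 0.34 ± 0.38 (SD, n = 3) for induced cells, and the exact permutation p was 0.5 (0.5 adjusted over 6 pairs). The GATA relatives and FOG partners passed in 0 of 6 measured cases (limma, 0 at an unadjusted p under 0.05), with a median of -0.016. Their largest estimates were those of Zfpm2 (FOG2), a cofactor of GATA proteins, at -0.19, and Gata4 at -0.082 (limma adjusted p = 0.804 and 0.732). For Zfpm2 the sign turned without induced replicate 3 (0.16).

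Other cells of fat and of the tissue around it can express GATA and KLF genes, so their markers were read on the same arrays. Gata2 is active in mast cells, and of 9 measured mast cell markers 0 passed, with a mean of 3.94 to 4.03 in control and 4.05 at most in induced cells. An unadjusted limma p under 0.05 was found for 0 mast cell, 0 epithelial and 0 endothelial markers, and for 2 each of the lymphoid and macrophage lists. Epithelial markers, for which Gata3 and Klf4 are known, passed in 0 of 13 cases, with means of 5.03 to 5.12 and 4.88 to 5.14. Of 16 endothelial markers 0 passed, with means of 5.19 to 5.30 and 5.11 to 5.30, although Tek, an endothelial receptor, read 6.51 on control replicate 3 and 4.83 to 5.28 on the other arrays. T and innate lymphoid cell markers passed in 0 of 14 cases, with means of 6.01 to 6.25 and 6.01 to 6.19. Macrophage and leukocyte markers, 0 of 18 passing, averaged 6.58, 6.97 and 5.50 for control replicates 1 to 3, against 7.56, 7.09 and 5.91 on the induced ones. They were thus lowest on replicate 3 in both groups. Gata2 and Gata3 were highest there within each group. On induced replicate 3, though, both (6.66 and 7.39) lay below their control means of 6.88 and 7.66. RMA values have no zero, so no marker could be called absent, and the part of these cells in the GATA values was not tested.

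The 3 Krüppel-like factors had estimates of both signs. Klf4 read 9.01, 8.11 and 9.45 on the control arrays and 8.26, 8.21 and 7.28 on the induced ones. Control replicate 2 lay below induced replicates 1 and 2, so the groups overlapped, and induced replicate 3 was the lowest array. Its difference of -0.94 (SE 0.40, 95% interval -1.91 to 0.02, limma adjusted p = 0.294) was the largest in size among the members, from 8.86 ± 0.68 to 7.92 ± 0.55 (SD, n = 3). It ran from -1.32 without control replicate 2 to -0.62 without induced replicate 3, and was -0.33 without both replicate 3 arrays.

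Klf2 (LKLF), a repressor of Pparg, read 7.13, 7.23 and 7.62 in control and 7.67, 7.61 and 7.46 in induced cells. Control replicate 3 alone of its group reached the induced range. The difference was 0.25 (SE 0.16, 95% interval -0.13 to 0.63, limma adjusted p = 0.467), with 0.15 without control replicate 1 and 0.40 without control replicate 3. Klf3 (BKLF), a repressor that acts through CtBP, read 9.06, 8.99 and 9.59 in control and 9.13, 9.13 and 8.86 in induced cells. Its groups overlapped too, and its difference of -0.18 (SE 0.19, 95% interval -0.62 to 0.27, limma adjusted p = 0.694) was the smallest of the 10, turning to 0.011 without control replicate 3 and 0.10 without both replicate 3 arrays. Gata2, Klf2, Klf3 and Klf4 all read highest in the control group on replicate 3.

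Ratios between the KLF genes were taken within each array. The log2 ratio of Klf3 to Klf2 was 1.93, 1.76 and 1.96 in control and 1.45, 1.51 and 1.40 in induced cells. These values did not overlap, and the means of 1.88 ± 0.11 and 1.46 ± 0.06 (SD, n = 3) differed by -0.43, more than the spread in either group. The ratio of Klf4 to Klf2 was lower by 1.20 in the means, at 1.53 ± 0.56 and 0.33 ± 0.44 (SD, n = 3). For both ratios the exact permutation test gave the smallest possible p of 0.1 (0.15 adjusted over 6 pairs), and for Klf4 to Klf3 it gave 0.2 (0.24 adjusted). A design of this size could not reach 0.05.

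The Klf3 promoter is shown because, of the 7 members with a RefSeq promoter entry, it held the most KLF motifs, CACCC or its complement GGGTG, in capitals here. It covers the 250 bases before the start (GRCr8, chr14:43850827-43851076, minus strand).
Klf3: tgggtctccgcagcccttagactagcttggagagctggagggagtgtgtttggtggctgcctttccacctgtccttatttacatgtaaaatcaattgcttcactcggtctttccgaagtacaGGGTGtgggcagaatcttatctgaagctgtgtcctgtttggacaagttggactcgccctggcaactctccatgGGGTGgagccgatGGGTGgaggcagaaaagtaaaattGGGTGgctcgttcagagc
The 4 matches there compare with 2 in the Gata3 window, 1 each in those of Gata2 and Zfp521, and 0 in those of Klf4, Twist1 and Twist2. At least 1 match was present in 49.2% of all 33469 windows. A GATA motif (AGATAA or TGATAA on either strand) was found once each in the Klf3 and Klf4 windows and in 16.9% of all windows. Matches of different motifs were counted separately, also where they overlap, and a match is a description of letters, not a bound site.

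The rest of the KLF family was read next to these 3 genes. Of 13 other KLF genes measured 0 passed over all genes and 6 had an unadjusted limma p under 0.05, with 7 positive and 6 negative estimates and a median of 0.011. Klf15, known to promote adipogenesis and glucose uptake, had the largest estimate at 1.46 (SE 0.27, limma adjusted p = 0.075). It read 6.41, 5.85 and 5.40 in control and 7.32, 7.13 and 7.59 in induced cells, so the groups did not overlap. It passed without control replicate 1 (1.72, limma adjusted p = 0.0492). Klf5, which is known to act early in adipogenesis, stood at -0.94 (SE 0.30, limma adjusted p = 0.195), from 8.87, 8.21 and 8.55 to 8.08, 7.72 and 7.00. Among the corepressors that KLF and other repressors recruit, 0 of 14 passed (limma, 0 at an unadjusted p under 0.05), and the largest estimates were those of the deacetylase Hdac1, at -0.36 (limma adjusted p = 0.314), and its partner Rcor1, at -0.33 (limma adjusted p = 0.3).

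**Figure D2:**
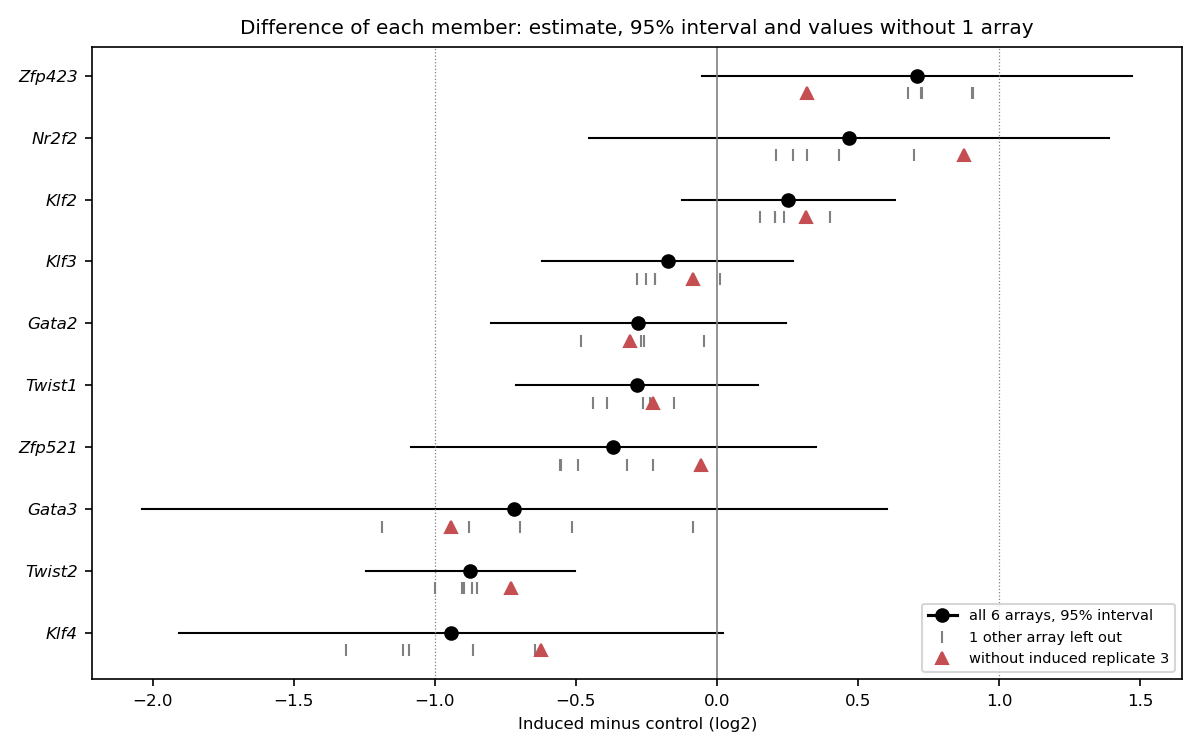
Induced minus control difference on the log2 scale (x axis) for each of the 10 members (y axis), as the estimate with its 95% interval from all 6 arrays, with the estimates without 1 array as small marks beneath. The Twist2 interval, -1.24 to -0.51, lies wholly below 0, and the red triangles without induced replicate 3 move most from the black points for Zfp423 and Nr2f2.

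Nr2f2, an orphan nuclear receptor of mesenchymal, venous and stromal cells, split the induced group. It read 9.52, 8.99 and 8.66 in the control cultures, 10.05 and 9.82 on induced replicates 1 and 2, and 8.71 on induced replicate 3. The first 2 induced arrays lay above every control array, and the other lay near the lowest control value. The difference over all arrays was 0.47 (SE 0.39, 95% interval -0.45 to 1.39, limma adjusted p = 0.588), and 0.87 without induced replicate 3 (limma adjusted p = 0.132). It was 0.21 without induced replicate 1, 0.32 without induced replicate 2, 0.27 without control replicate 3 and 0.70 without control replicate 1. Auts2 and C8h11orf87 were nearest to it in pattern (root mean square difference 0.098 and 0.13 on the log2 scale over 6 arrays), and neither passed. Of 4 measured COUP-TF relatives 0 passed (limma, 0 at an unadjusted p under 0.05), the largest estimates being those of Nr2c2 at -0.29 and Nr2f1 (COUP-TFI) at -0.23 (limma adjusted p = 0.397 and 0.494). Mean endothelial marker signal on induced replicate 3 was 5.11, beside 5.30 and 5.22 on the other induced arrays, and mean stromal marker signal 8.33, beside 9.22 and 9.21. Their part in the Nr2f2 value was not tested.

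The 2 related zinc finger proteins had estimates of opposite sign. Zfp521, the blocker of EBF1, read 9.38, 8.91 and 9.56 in control and 9.28, 9.17 and 8.30 in induced cells. Only induced replicate 3 lay below the control range. Its difference was -0.37 (SE 0.30, 95% interval -1.09 to 0.35, limma adjusted p = 0.584), then -0.058 without induced replicate 3 and 0.082 without both replicate 3 arrays. Zfp423 read 7.32, 7.23 and 7.33 in control and 7.62, 7.61 and 8.79 in induced cells. Every induced value was above every control value, by a small margin on replicates 1 and 2 and a large one on replicate 3. The mean went from 7.30 ± 0.05 to 8.01 ± 0.68 (SD, n = 3), a difference of 0.71 (SE 0.32, 95% interval -0.05 to 1.47, limma adjusted p = 0.314), or 1.64-fold. Without induced replicate 3 the difference was 0.32 (limma adjusted p = 0.202).

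On the log2 ratio of Zfp423 to Zfp521 the control arrays read -2.06, -1.67 and -2.23 and the induced arrays -1.67, -1.56 and 0.49. Induced replicate 3 carried most of the shift of 1.08, and induced replicate 1 was above control replicate 2 by less than 0.01. The exact permutation p was 0.1 (0.15 adjusted over 6 pairs). Nearest to Zfp423 in pattern were Uqcrq, a subunit of respiratory complex III, and Syap1, at root mean square differences of 0.026 and 0.048 on the log2 scale over 6 arrays. Uqcrq read 10.43 on induced replicate 3 and 8.90 to 9.29 elsewhere. For Zfp521 they were Dpep1, a dipeptidase, and Sertad1 (0.070 and 0.089).

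The EBF factors that ZFP521 and ZFP423 bind, and the BMP Smads that ZFP423 works with, passed in 0 of 8 cases (limma, 1 at an unadjusted p under 0.05), with a median of -0.23. Ebf2, known as a brown precursor factor, stood at -0.97 (SE 0.48, limma adjusted p = 0.361). It read 7.99, 7.11 and 7.94 in control and 7.35, 7.14 and 5.63 in induced cells, and induced replicate 3 was again the lowest array. Without that array its difference was smaller in size but still negative. Ebf3 stood at 0.51 (limma adjusted p = 0.585), with 8.91, 8.92 and 7.74 in control and 9.43, 9.34 and 8.33 in induced cells, and at 0.12 without control replicate 3 and 0.86 without induced replicate 3.

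**Figure D3:**
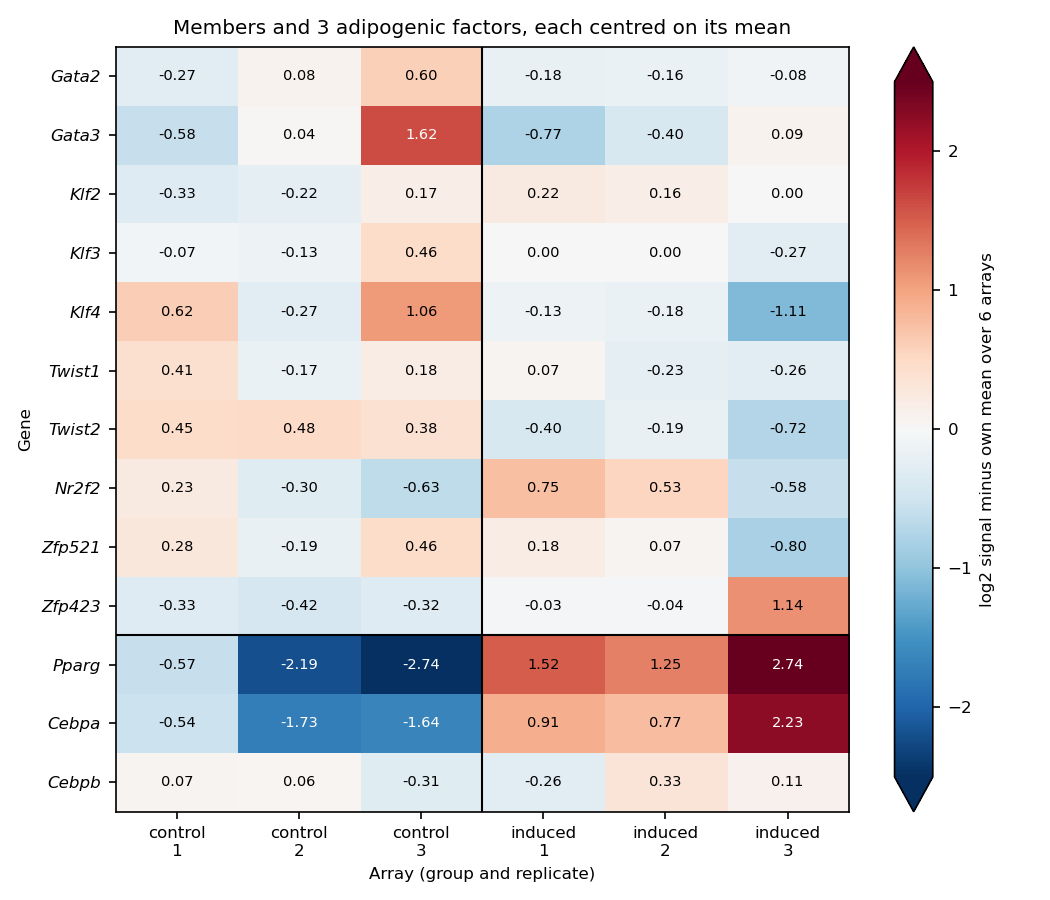
Log2 signal of each gene minus its own mean over the 6 arrays (colour and printed value) for the 10 members and for Pparg, Cebpa and Cebpb, by array (x axis) and gene (y axis). The vertical line parts control from induced arrays. Gata3 is highest on control replicate 3, Zfp423 on induced replicate 3, and Klf4, Zfp521 and Twist2 are lowest on induced replicate 3.

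Arrays of one group also differed among themselves. Induced replicates 1 and 2 lay within 0.25 log2 units of each other for 8 of 10 members, and 0.37 apart at most. Induced replicate 3 lay over 0.5 log2 units from their mean for 5 of 10: higher for Zfp423 by 1.18 and for Gata3 by 0.67, and lower for Nr2f2 by 1.22, Klf4 by 0.95 and Zfp521 by 0.93. How many of all genes met either limit was not counted, so these counts are not read as particular to the members. Induced replicate 3 was highest of its group for 3 members and lowest for 7, against 38.6% and 41.3% of all genes. In the control group, replicate 3 was the highest array for 7 members, where 34.3% of all genes were highest on it. Mitosis genes, of which 1 of 19, Kif23, fell by 1.28 (SE 0.18, limma adjusted p = 0.0424), had 19 negative estimates, 18 of them at an unadjusted limma p under 0.05. Their groups did not overlap for 18 of 19. The Kif23 call was lost without control replicate 1, 2 or 3 (limma adjusted p = 0.088, 0.134 and 0.113), without induced replicate 1 or 2 (0.171 and 0.116), with a block for replicate number (0.0687) and over single features (0.0704). The mitosis list averaged 8.93, 9.33 and 8.68 on the control arrays and 7.95, 8.22 and 7.42 on the induced ones, so both replicate 3 arrays were lowest of their group. The part of cell division in the members' values was not tested.

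Genes nearest in pattern, here and above, were picked for closeness on these same 6 arrays, so their likeness follows from the choice. They were found for members that ranged over at least 1 log2 unit. For Twist2 they were Kifc1, a mitotic kinesin, and Ramp2, a receptor partner, at root mean square differences of 0.059 and 0.062 on the log2 scale over 6 arrays. Kifc1 stood at -0.80 (limma adjusted p = 0.106) and Ramp2 at -0.91 (limma adjusted p = 0.084). For Klf4 they were Slc7a1, a cationic amino acid transporter, and Gas7 (0.11 and 0.14), with differences of -0.86 and -1.04 that did not pass (limma adjusted p = 0.273 and 0.282). Between members, the root mean square difference was smallest for Gata2 and Klf3 (0.18) and largest for Gata3 and Nr2f2 (1.26). This measure is not scaled to a gene's range over the 6 arrays. That range was 0.87 for Gata2, 0.73 for Klf3, 1.38 for Nr2f2 and 2.39 for Gata3. Small values can thus come from small ranges, and likeness in shape alone was not measured.

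Pparg and Cebpa, which some but not all of these regulators are known to repress, had larger differences than any member did. Pparg, the nuclear receptor that drives fat cell formation, read 8.17, 6.55 and 6.00 in control and 10.26, 9.99 and 11.48 in induced cells, a difference of 3.67 (SE 0.62, limma adjusted p = 0.065). Cebpa, its partner, read 8.19, 7.00 and 7.08 against 9.64, 9.50 and 10.96, a difference of 2.61 (SE 0.48, limma adjusted p = 0.0762). Both had groups that did not overlap, without passing over all genes. Pparg passed without control replicate 1 (4.30, limma adjusted p = 0.0415), and without induced replicate 3 both did (3.22 and 2.15, limma adjusted p = 0.0412 and 0.0314). Cebpb, which acts before them, stood at 0.12 (SE 0.19, limma adjusted p = 0.807) with overlapping groups. In size, the largest difference of a member was the -0.94 of Klf4. Control replicate 1, the control array with the highest Pparg and Cebpa, had the lowest control values of Gata2, Gata3 and Klf2 and the highest of Twist1 and Nr2f2, so the members did not share one order on it.

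Both RefSeq starts of Pparg are shown because KLF2 and GATA factors are known to bind this gene, with CACCC or GGGTG in capitals. The first window is GRCr8 chr4:150096808-150097057 and the second chr4:150154522-150154771, both on the plus strand and 250 bases long.
Pparg start 1: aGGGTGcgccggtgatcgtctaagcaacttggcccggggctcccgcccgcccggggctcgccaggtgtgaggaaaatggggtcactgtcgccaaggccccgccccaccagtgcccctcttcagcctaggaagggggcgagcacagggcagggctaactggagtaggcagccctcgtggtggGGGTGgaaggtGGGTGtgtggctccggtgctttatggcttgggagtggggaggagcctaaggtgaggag
Pparg start 2: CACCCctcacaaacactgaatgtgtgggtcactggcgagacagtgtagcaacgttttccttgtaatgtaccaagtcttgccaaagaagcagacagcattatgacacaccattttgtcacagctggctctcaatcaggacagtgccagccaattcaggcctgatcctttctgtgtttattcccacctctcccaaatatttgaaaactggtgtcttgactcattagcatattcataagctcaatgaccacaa
The first held 3 matches and the second 1, and the GATA motif was found in 0 of both. The array feature is reported by gene, so use of one start or the other was not measured here. The Cebpa window of the same length, for a promoter where KLF3 is known to act, held 0 KLF and 0 GATA motifs.

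**Figure D4:**
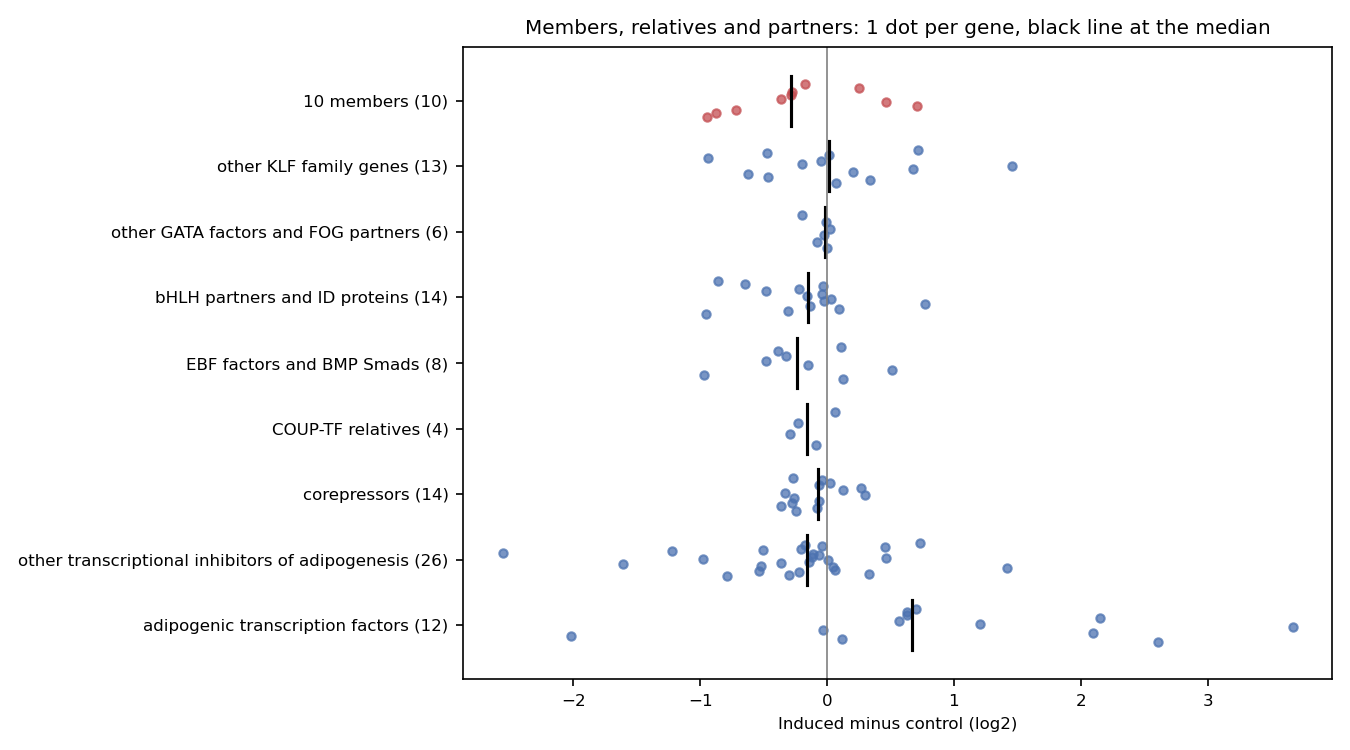
Induced minus control difference on the log2 scale (x axis) of the 10 members (red) and of 8 lists of relatives, partners, inhibitors and adipogenic factors (blue), 1 dot per gene with the number measured in brackets and a black line at the list median. Medians lie between -0.28 and 0.01 except for the adipogenic factors at 0.67.

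Other transcriptional inhibitors of adipogenesis gave 0 of 26 called genes (limma, 8 at an unadjusted p under 0.05), 18 negative and 8 positive estimates and a median of -0.16. Nr4a1, an immediate early orphan receptor, read 10.38, 10.47 and 10.28 in control and 8.88, 8.57 and 6.01 in induced cells, with an estimate of -2.56 (SE 0.71, limma adjusted p = 0.152). Gli3, the hedgehog repressor, stood at -1.61 (SE 0.47, limma adjusted p = 0.168), also with induced replicate 3 lowest at 6.70. Without that array Nr4a1 stood at -1.65 and passed (limma adjusted p = 0.00355). Over the 7 lists of relatives, partners and inhibitors together, 0 of 85 measured genes passed and 19 had an unadjusted limma p under 0.05. Of all genes, 0.749% passed and 17.6% met that unadjusted limit, so the count of 19 is not read as particular to these lists. Among 12 adipogenic transcription factors, 0 passed (limma, 7 at an unadjusted p under 0.05) and 10 had positive estimates, with a median of 0.67. A mean difference of 2-fold or more was found for 0 of 10 members, against 4.98% of all genes, while the 95% intervals of 6 members allow one.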

How the data were processed

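The deposited table holds log2 values for 6 arrays, made by the authors with RMA, as named in the submitters' processing notes without a version. RMA corrects background, normalizes by quantiles and summarises probes. Quantile normalization hides changes in total RNA. RNA was labelled from 6 µg per sample, per the labels' protocols. Of 36685 features, 18511 had 1 gene symbol in the platform annotation; for each of 18166 genes the feature with the highest mean over 6 arrays was used. The main test, induced against control, was limma's (version 3.58.1, R 4.3.3; lmFit, eBayes, two-sided, no block), adjusting over all genes by Benjamini-Hochberg at 0.05. Ratios between family members were compared by exact permutation. The fit was tested on simulated data with independent normal noise and no outlying array. That test does not cover an array that stands apart, as induced replicate 3 did.

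The members, gene lists and tests were chosen with earlier results of these data known. Named genes are the 10 members; from each list the called genes (up to 4) or else the 2 largest differences; Pparg, Cebpa and Cebpb; and, for members ranging over at least 1 log2 unit, the 2 genes nearest in pattern. Promoter sequences are RefSeq's (GRCr8), found for 7 of 10 members. Alternatives were a replicate block, leaving arrays out, array weights, another variance prior, a filter on dim genes, 2 other scalings, mean of features and testing every feature.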

Additional observations from a re-analysis of the deposited data

How the results depend on the processing

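Of the 10 members, 0 passed in 12 of 15 alternatives; 1, Twist2, passed without both replicate 3 arrays, with array weights and without induced replicate 3, so with 1 array left out the count ran from 0 to 1. Over all genes, where 136 changed, 12 did so with a replicate block, 740 without both replicate 3 arrays, 929 with array weights and 69 over single features. With 1 array left out, counts ran from 2 (without induced replicate 1) to 557 (without induced replicate 3), with 15 and 20 without control replicates 2 and 3 and 26 without induced replicate 2. With the replicate block, 0 members passed. Same-numbered arrays deviated together at r = 0.023, 0.12 and 0.15 across genes. The labels state no pairing, so the numbers were not taken as pairs, but these r values cannot exclude it. The block lowered the SE for Gata2, Gata3 (0.55 to 0.29), Twist1, Twist2, Nr2f2 (0.39 to 0.19) and Zfp423. It raised the SE for Klf2, Klf3, Klf4 and Zfp521.

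Signs turned as follows, and the cause was not tested. Without both replicate 3 arrays Klf3 stood at 0.10, Zfp521 at 0.082, Zfpm2 at 0.25, Cebpb at -0.033 and Sertad1 at 0.14. With array weights Zfpm2 stood at 0.086 and Sertad1 at 0.060. With 1 array left out, Klf3 ran from -0.28 to 0.011, Cebpb from -0.014 to 0.28, Dpysl3 from -1.17 to 0.15, Krt14 from -0.25 to 0.048 and Zfpm2 from -0.45 to 0.16. The other 8 members kept their sign in all 15 alternatives that were run, besides Twist2's change of call. With array weights, calls were also gained by Pparg, Cebpa, Klf15, Nr4a1, C1qb, Notch3, Thy1, Rora, Kifc1 and Ramp2, and Thy1 passed under the dim-gene filter and quantile scaling. With 3 arrays a group, a member whose printed interval spans 0 could not be told from no difference.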

Other observations

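Markers of other cell types gave these further values, as log2 differences that did not pass over all genes except where said. Of 10 measured mural cell markers 0 passed (limma, 3 at an unadjusted p under 0.05), and 6 had negative estimates, with a median of -0.36. The largest in size went the other way: Mcam, a pericyte adhesion molecule, at 2.42 and Notch3, a receptor of vessel wall cells, at 0.80 (limma adjusted p = 0.191 and 0.102). Mcam read 7.66, 7.56 and 10.51 on the induced arrays, and without induced replicate 3 its difference was 1.46 and passed (limma adjusted p = 0.0215). Among mast cell markers the largest were Kit (0.39) and Tpsab1 (-0.25), among lymphoid markers Thy1 (-0.97) and Rora (0.78), both of which stromal cells also express. For epithelium they were Grhl2 (-0.23) and Krt14 (-0.14), for endothelium Tek (-0.74) and Egfl7 (0.61), and for macrophages C1qb (1.89) and Cd68 (1.39). C1qb was 1.25 without induced replicate 1 and 2.88, past the threshold (limma adjusted p = 0.00123), without induced replicate 3. Cd68 was 0.61 without control replicate 3. Thy1 also passed without induced replicate 3 (limma adjusted p = 0.0307). Of 15 stromal markers 13 had negative estimates, with a median of -0.55, and the groups did not overlap for 6 lower and 1 higher marker. The 1 that passed went against the rest: Dlk1, a preadipocyte factor, rose by 1.02 (limma adjusted p = 0.033). Dlk1 missed the threshold when control replicate 1, 2 or 3 was left out (limma adjusted p = 0.0803, 0.13 and 0.113), without induced replicate 1 or 2 (0.111 and 0.124), with the replicate block (0.0838) and over single features (0.0608).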
